A study of Homo sapiens with 6 samples.

Results

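Genes of the plasminogen system, matrix metalloproteinases (MMPs) and tissue inhibitors of metalloproteinases (TIMPs) were followed in RNA-seq libraries of ACHN cells, a human kidney cancer line in long use. The 9 members were chosen by gene symbol as PLAU, PLAUR, PLAT, MMP2, MMP7, MMP14, TIMP1, TIMP2 and TIMP3, and each matched 1 of the 58735 gene rows. There were 3 libraries of cells given curcumol, a sesquiterpenoid from the rhizome oil of Curcuma species, and 3 of control cells. All are wild-type ACHN cells of 1 line. The control is called a vehicle control in the sample labels, whereas the series' design text says that it got no drug. Neither the dose nor the exposure time is stated in the labels. The stated interest of the series was in glycolysis and malignant behaviour of the cells.

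Cells break down the matrix around them with secreted and membrane-bound proteases. The plasminogen activators urokinase (PLAU) and tissue-type activator (PLAT) cut plasminogen to plasmin, and the urokinase receptor (PLAUR) holds urokinase at the cell surface. Plasmin degrades fibrin and matrix proteins and can activate MMP precursors. MMP14 sits in the membrane, cleaves collagen and activates pro-MMP2 in a complex with TIMP2. TIMPs bind the active site of MMPs and, in the case of TIMP3, also that of several ADAM proteases.

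Libraries held 16962012 to 17827433 counts. Renal markers PAX8 (890 to 993 counts in curcumol and 3666 to 3684 in control) and PAX2 were present, but CA9, a surface marker usually high in clear cell tumours, had 0 to 3 counts in every library. The 8 renal markers summed to 1873 to 2155 CPM in curcumol and 2884 to 3088 CPM in control, and the 7 that were tested were all lower. Curcumol replicate 2 stood apart for fibroblast markers. COL1A2 had 70 counts there and 0 or 1 in each other library, and LUM had 22 there and 0 elsewhere. COL1A1 had 66 counts there and 14 and 27 in the other curcumol libraries, but 100, 91 and 94 in control. PDGFRB had 77, 123 and 80 counts in curcumol and 54, 45 and 43 in control. Of the fibroblast markers 2 were tested, and 1 was higher and 1 lower. The 6 fibroblast markers summed to 18.8 CPM in curcumol replicate 2. They summed to 5.89 and 6.76 CPM in the other curcumol libraries and 7.12 to 8.29 CPM in control. The 5 leukocyte markers summed to 5.12 to 5.71 CPM in curcumol and 0.108 to 0.258 CPM in control, mostly from CD14, with CD3E at 0 in all. The 4 endothelial markers stayed at or below 0.821 CPM in curcumol and 0.155 CPM in control.

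The sequences before the starts of PLAU and MMP14, which fell, and of PLAUR, which rose, are shown because these members had the largest changes. They are 250 bases long, from RefSeq on GRCh38.p14, read 5′ to 3′ on the strand of the gene. Windows were taken for 6 of the 9 members. None was taken for PLAT, MMP2 or TIMP2, and whether RefSeq lists a start for these was not tested. Capitals mark the searched motifs, which are the GC box GGGCGG, the AP-1 motif TGANTCA and the TATA box TATAAA. Each was searched on both strands, and the matches shown do not overlap. PLAU has 2 listed starts, and their windows are chr10:73910882-73911131 for the downstream start and chr10:73910360-73910609 for the upstream start, both on the plus strand. The window of MMP14 is chr14:22836335-22836584 on the plus strand, and that of PLAUR is chr19:43670170-43670419 on the minus strand.
PLAU, downstream start: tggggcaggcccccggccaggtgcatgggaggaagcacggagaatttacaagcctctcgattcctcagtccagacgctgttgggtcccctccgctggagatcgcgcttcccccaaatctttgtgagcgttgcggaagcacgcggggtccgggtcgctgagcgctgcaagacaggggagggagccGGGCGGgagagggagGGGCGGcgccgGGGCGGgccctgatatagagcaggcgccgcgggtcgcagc
PLAU, upstream start: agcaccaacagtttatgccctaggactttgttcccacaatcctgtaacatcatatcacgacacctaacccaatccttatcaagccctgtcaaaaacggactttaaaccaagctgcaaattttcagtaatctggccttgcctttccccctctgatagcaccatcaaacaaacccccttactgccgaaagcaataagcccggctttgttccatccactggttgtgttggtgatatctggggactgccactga
MMP14: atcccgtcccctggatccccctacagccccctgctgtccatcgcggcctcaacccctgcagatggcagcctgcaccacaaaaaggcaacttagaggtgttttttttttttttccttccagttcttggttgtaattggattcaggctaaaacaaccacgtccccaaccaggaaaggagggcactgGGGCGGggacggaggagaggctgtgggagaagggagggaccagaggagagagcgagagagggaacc
PLAUR: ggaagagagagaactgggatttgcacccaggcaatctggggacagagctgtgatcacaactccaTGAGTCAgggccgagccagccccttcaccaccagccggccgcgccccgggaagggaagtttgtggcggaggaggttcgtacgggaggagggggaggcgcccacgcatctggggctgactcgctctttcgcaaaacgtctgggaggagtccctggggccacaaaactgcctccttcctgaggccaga

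The window of the downstream PLAU start holds 3 GC boxes, which begin 66, 51 and 40 bases before it, and the window of the upstream start holds none of the motifs searched. The MMP14 window holds 1, which begins 66 bases before it. The PLAUR window holds no GC box and 1 AP-1 motif, which begins 186 bases before the start. Of all 35116 promoter windows of this length, 42.6% hold a GC box and 6.57% hold the AP-1 motif. A match describes the letters of the window and is not evidence of binding. MMP7 also has an AP-1 motif, 67 bases before its start, and a TATA box (TATAAA, found in 10.7% of windows) 30 bases before it. TIMP1 has 2 GC boxes on the opposite strand, and TIMP3 has 5 over both strands.

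Curcumol-treated cells had much less mRNA of the urokinase gene PLAU and of the membrane protease gene MMP14, less of the activator gene PLAT and more of the urokinase receptor gene PLAUR. With TMM scaling the inhibitor genes TIMP1 and TIMP2 changed little. With an offset for GC content TIMP1 stood at a log2 fold change of 0.77. Of the 9 members, 6 had enough counts to be tested, and a filter on low counts left out MMP2, MMP7 and TIMP3. Of these 2 were higher and 4 lower in curcumol (edgeR quasi-likelihood test, Benjamini-Hochberg adjusted p under 0.05 over 15160 genes), and in the same test 79.7% of all tested genes were called, 39.4% higher and 40.3% lower. The tested members had a median log2 fold change of -0.34, against -0.02 for all tested genes. PLAU, MMP14 and PLAUR changed at least 2-fold, as did 44.4% of all tested genes. For each of the 6 tested members the groups did not overlap in CPM, which held for 81% of all tested genes. With so much of the transcriptome called, the count of members called is close to the background, and the members are described by direction and size. In bulk RNA, fewer cells of a type and less RNA per cell cannot be told apart.

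**Figure D1:**
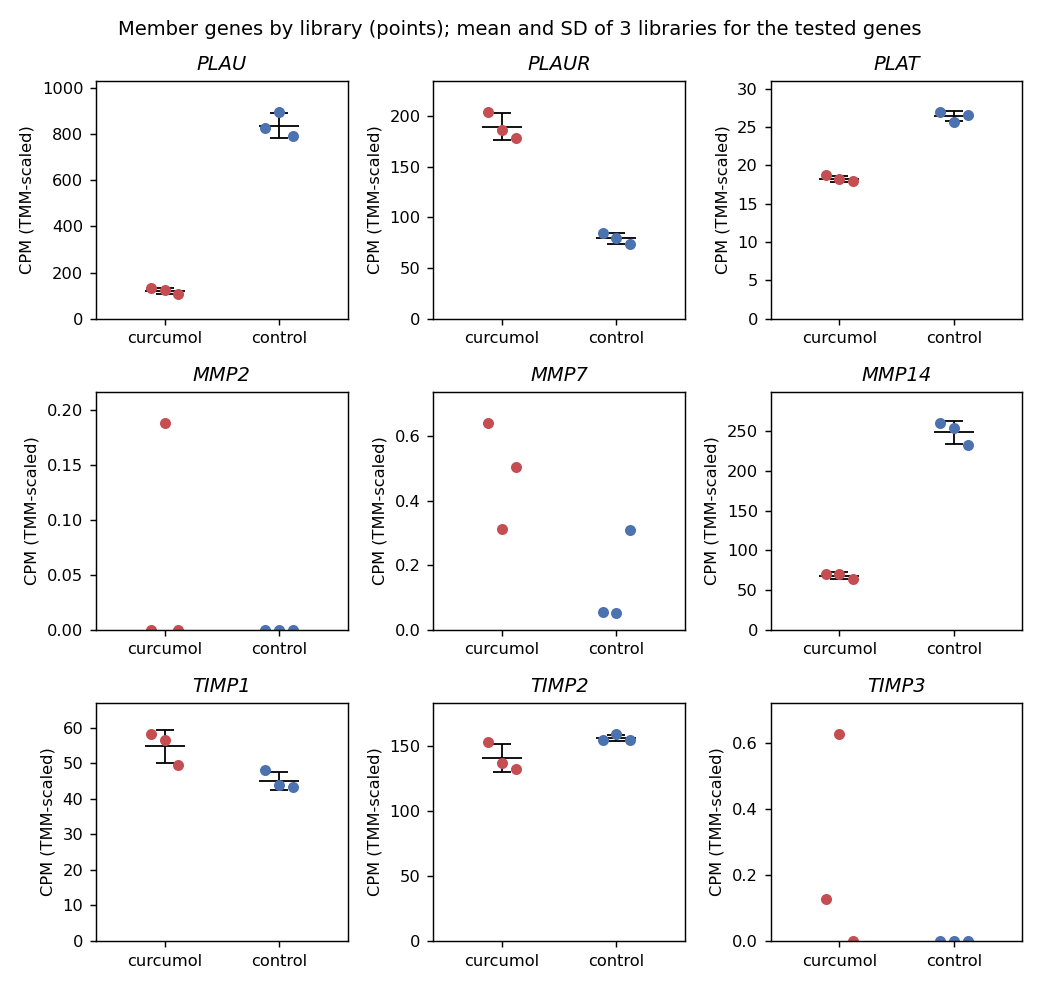
Level of each of the 9 members in CPM (counts scaled to a common library total with TMM factors; vertical axes start at 0) in the 3 curcumol and 3 control libraries (points); bars give the mean and SD for the 6 tested genes. PLAU lay between 106 and 134 CPM in curcumol and between 791 and 896 CPM in control, and MMP2 and TIMP3 were at 0 in every control library.

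PLAU (ENSG00000122861, chromosome 10, 73909177 to 73917497, plus strand, GRCh38) encodes urokinase, the main activator of plasminogen at the cell surface. It had 134, 123 and 106 CPM in the curcumol libraries, against 825, 896 and 791 CPM in the control libraries. The groups were far apart, and every curcumol library lay below every control library. The means were 121 ± 14.1 CPM in curcumol and 837 ± 53.4 CPM in control (SD, n = 3), and the log2 fold change was -2.79 ± 0.08 (SE; adjusted p = 6.60e-17, edgeR), or 6.92-fold lower in curcumol. This was rank 480 among falls over the 15160 tested genes. PLAU shares 916 exonic bases with C10orf55 on the other strand, a gene that held 115 counts over all libraries, against 53760 for PLAU.

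PLAT (ENSG00000104368, chromosome 8, 42175233 to 42207724, minus strand) encodes the tissue-type activator, best known for dissolving clots. Its levels were 18.7, 18.2 and 17.9 CPM in the curcumol libraries, against 27.0, 25.7 and 26.6 CPM in the control libraries. Replicates were close within each group, with coefficients of variation of 2.14% in curcumol and 2.46% in control, and the groups did not overlap. The log2 fold change was -0.53 ± 0.09 (SE; adjusted p = 2.71e-05, edgeR).

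PLAUR (ENSG00000011422, chromosome 19, 43646095 to 43670547, minus strand) encodes the receptor that anchors urokinase to the membrane through a lipid tail. It had 204, 186 and 179 CPM in the curcumol libraries, against 84.6, 79.8 and 73.9 CPM in the control libraries. All curcumol libraries lay above all control libraries, so the receptor moved in the other direction from its ligand. The log2 fold change was 1.26 ± 0.07 (SE; adjusted p = 3.18e-13, edgeR), or 2.39-fold higher.

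Within a library, levels of different genes were compared as TPM, which divides each count by exon length before scaling to a common total and carries no TMM factor. PLAU stood at 128 ± 11.2 TPM in curcumol and 1131 ± 56.5 TPM in control, and PLAUR at 133 ± 4.56 TPM in curcumol and 71.0 ± 4.53 TPM in control (SD, n = 3). The TPM ratio of PLAUR to PLAU was 1.01, 1.004 and 1.11 in the curcumol libraries, against 0.0679, 0.0590 and 0.0618 in the control libraries. By this measure receptor and ligand mRNA were near equal in curcumol, whereas the receptor mRNA was a small fraction of the ligand mRNA in control. The exon length joins all annotated exons of a gene, 4457 bases for PLAUR and 2950 for PLAU. Which transcripts were expressed was not tested, so levels between genes, and whether they are equal, depend on these lengths. A fixed length cancels out of the difference between the groups. PLAU ranked 1132 by mean TPM among the tested genes in curcumol and 74 in control. It remained above PLAT in every library, by a TPM ratio of 14.8 ± 1.43 in curcumol and 71.2 ± 6.15 in control (SD, n = 3).

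**Figure D2:**
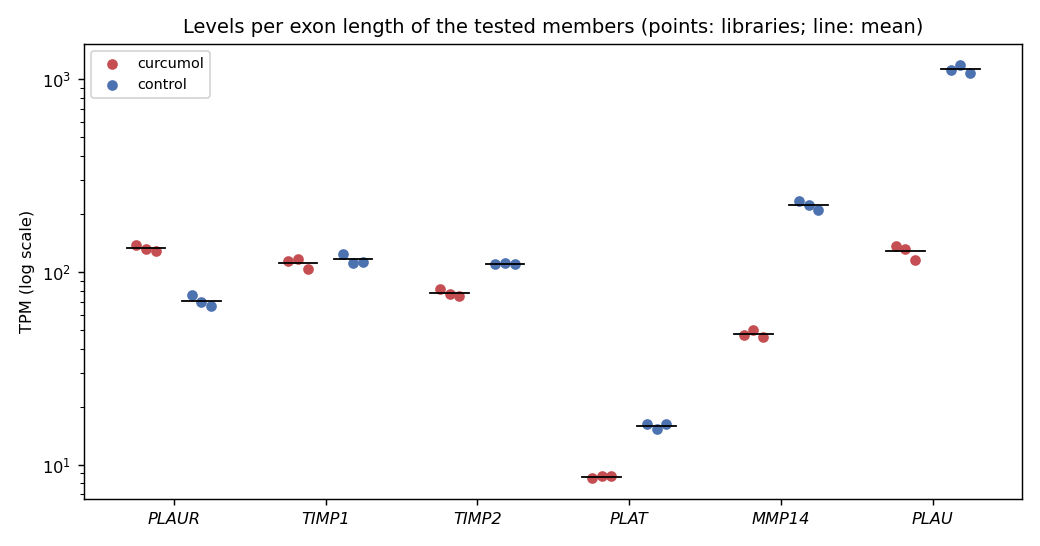
Levels per joined exon length (TPM, log scale) of the 6 tested members in each curcumol and control library (points, with the mean as a line). In control PLAU was highest and MMP14 next, whereas in curcumol PLAUR, PLAU and TIMP1 lay close together and MMP14 below TIMP2.

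The order of the members by mean TPM rests on the joined exon lengths. In curcumol it was PLAUR, PLAU, TIMP1, TIMP2, MMP14 and PLAT. In control it was PLAU, MMP14, TIMP1, TIMP2, PLAUR and PLAT. PLAU and PLAUR overlapped between libraries in curcumol (115 to 137 and 129 to 138 TPM), while TIMP1 and TIMP2 did not overlap in control (112 to 125 and 110 to 111 TPM) but were close. PLAT was last in both groups, with 8.64 ± 0.117 TPM in curcumol and 15.9 ± 0.577 TPM in control (SD, n = 3).

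The remaining genes of the plasminogen system went both ways. Of the 15 genes listed, 9 were tested, and 4 were higher and 4 lower, with a median log2 fold change of 0.36. Over all tested genes 79.7% were called in either direction. SERPINE2, protease nexin-1, an inhibitor of urokinase, plasmin and thrombin, averaged 39.4 ± 2.997 CPM in curcumol and 16.2 ± 1.57 CPM in control (SD, n = 3). Its log2 fold change was 1.29 ± 0.10, or 0.84 with an offset for GC content.

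Cell surface docking genes for plasminogen differed in direction. ANXA2 and S100A10, whose products form the annexin A2 complex that binds plasminogen and PLAT, rose by log2 fold changes of 0.65 ± 0.06 and 0.77 ± 0.06 (SE; adjusted p = 6.30e-10 and 1.19e-10, edgeR). With an offset for GC content ANXA2 stood at 0.38 and S100A10 at 1.17. PLGRKT, a transmembrane plasminogen receptor, had a log2 fold change of -1.004 ± 0.16. MRC2, the uPAR-associated collagen receptor, averaged 38.5 ± 4.99 CPM in curcumol and 86.7 ± 3.47 CPM in control (SD, n = 3), and its log2 fold change was -1.17 ± 0.09, or -0.45 with an offset for GC content. LRP1, which clears urokinase bound to its inhibitor, stood at -0.52 ± 0.11 (edgeR adjusted p = 0.00028), but at 0.07 with the GC offset (edgeR adjusted p = 0.561), and it shares 59 exonic bases with the abundant STAT6 on the other strand. PLG, the plasminogen gene itself, SERPINB2 and SERPINA5 had 0 counts in all libraries, so the substrate mRNA was not detected in these cells. A2M, CPB2 and VTN were also too low to be tested, with 23, 1 and 28 counts in curcumol and 0, 3 and 10 in control.

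MMP14 (ENSG00000157227, chromosome 14, 22836557 to 22849027, plus strand) encodes the membrane collagenase MT1-MMP. It had 70.2, 70.8 and 63.8 CPM in the curcumol libraries, against 260, 253 and 233 CPM in the control libraries. The groups did not overlap, and the gap between them was many times the spread within either. The log2 fold change was -1.86 ± 0.07 (SE; adjusted p = 2.43e-16, edgeR), or 3.64-fold lower, and with a GC offset it was -1.33.

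MMP2 and MMP7 were close to absent. MMP2 (ENSG00000087245, chromosome 16, 55389700 to 55506691), gelatinase A and the best known substrate of MMP14, had 0, 3 and 0 counts in curcumol and 0 in each control library. A count of 0 allows up to 3 counts, which is 0.189 to 0.192 CPM in the curcumol libraries at 0 and 0.155 to 0.161 CPM in the control libraries. The 3 counts lay in curcumol replicate 2, the library with the highest sum of fibroblast markers. The part of those markers in this value was not tested. MMP7 (ENSG00000137673, chromosome 11, 102520508 to 102530753), matrilysin, a small secreted protease of epithelial cells, had 10, 5 and 8 counts in curcumol and 1, 1 and 6 in control. It was too low to be tested, its groups overlapped in counts and lay next to each other in CPM (0.314 in the lowest curcumol and 0.310 in the highest control library), and with no filter on low counts its edgeR adjusted p was 0.0865.

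Of the 20 other MMP genes, 5 were tested, and 4 were lower and 0 higher in curcumol, with a median of -1.75. Among all tested genes 40.3% were called lower and 39.4% higher. With a GC offset 3 of the 5 MMP genes were lower. The count of 0 higher was the same at an unadjusted p under 0.05 and with DESeq2 and limma-voom. MMP17, a membrane-type MMP held by a lipid anchor, had 37, 16 and 17 counts in curcumol and 291, 293 and 246 in control, a log2 fold change of -3.29 ± 0.22 (SE; adjusted p = 1.52e-11, edgeR), or -2.44 with the GC offset. MMP15, MT2-MMP, had 82, 75 and 61 counts in curcumol and 284, 312 and 293 in control, with a log2 fold change of -1.75 ± 0.14, or -0.96 with the GC offset. MMP11, stromelysin-3, was low, with 6, 7 and 4 counts in curcumol and 46, 55 and 49 in control, and its log2 fold change was -2.84 ± 0.37, or -2.22 with the GC offset. It shares 218 exonic bases with CHCHD10 on the other strand, a gene that held 2329 counts over all libraries, against 167 for MMP11.

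Together with MMP14, 4 of the 6 membrane-type MMP genes (MMP14, MMP15, MMP16, MMP17, MMP24 and MMP25, grouped after their values were seen) were tested. All 4 were lower with TMM scaling, as were 40.3% of all tested genes. With the GC offset 3 were lower, and MMP24 lost its call. MMP16 and MMP25 were too low to be tested. MMP24 stood at -0.49 ± 0.09 (edgeR adjusted p = 6.37e-05), but at 0.13 with the GC offset (edgeR adjusted p = 0.181). It shares 799 exonic bases with MMP24OS on the other strand, a gene that held 1404 counts over all libraries, against 3198 for MMP24. MMP1, interstitial collagenase, named after its values were seen, had 51, 50 and 93 counts in curcumol and 53, 71 and 43 in control, so the groups overlapped. Its log2 fold change was 0.49 ± 0.26 (edgeR adjusted p = 0.0883). It passed without control replicate 2 (0.69), without curcumol replicate 1 (0.63) and without curcumol replicate 2 (0.65). The 15 MMP genes that were not tested held 126 counts in curcumol and 57 in control, and MMP23B, MMP26 and MMP27 had 0 in all libraries. Among them MMP3, MMP8, MMP9, MMP10, MMP12 and MMP13 had 28, 6, 6, 3, 2 and 14 counts in curcumol and 10, 0, 3, 7, 0 and 0 in control. MMP16, MMP19, MMP20, MMP21, MMP25 and MMP28 had 7, 27, 5, 13, 7 and 8 counts in curcumol and 1, 17, 0, 2, 11 and 6 in control.

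**Figure D3:**
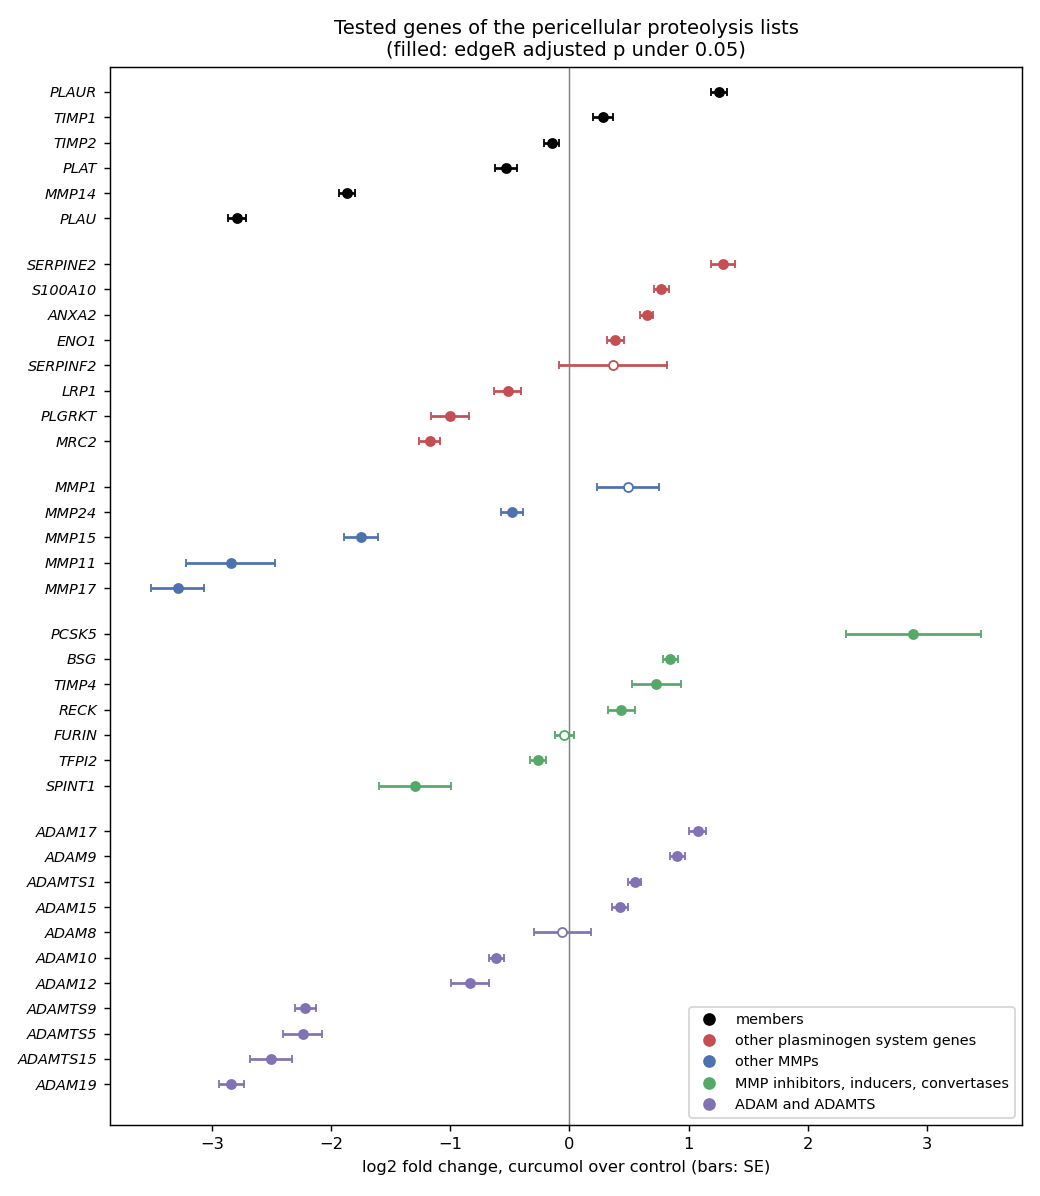
Log2 fold change, curcumol over control, with SE of tested genes among the members, 8 of the 9 other plasminogen system genes tested, the other MMPs, the MMP control genes and the ADAM and ADAMTS genes (filled points: edgeR adjusted p under 0.05). PLAU at -2.79 and MMP17 at -3.29 lie far to the left, and PLAUR at 1.26 and SERPINE2 at 1.29 to the right.

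TIMP1 (ENSG00000102265, chromosome X, 47582313 to 47586789, plus strand), a secreted inhibitor of most MMPs, had 58.2, 56.6 and 49.5 CPM in the curcumol libraries, against 48.0, 43.8 and 43.2 CPM in the control libraries. The groups lay close, though without overlap. The log2 fold change was 0.28 ± 0.08 (SE, 95% interval 0.11 to 0.45, edgeR adjusted p = 0.00368). Scaling by library totals, which moved the median of all genes to -0.28, gave 0.02 (edgeR adjusted p = 0.861), and a GC offset gave 0.77. Raw counts of TIMP1 summed to 2593 in curcumol and 2580 in control, and its TPM was 111 ± 6.96 in curcumol and 116 ± 7.09 in control (SD, n = 3), so the rise depends on the scaling.

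TIMP2 (ENSG00000035862, chromosome 17, 78852977 to 78925387, minus strand), the inhibitor that also bridges MMP14 and pro-MMP2, had 153, 137 and 132 CPM in the curcumol libraries, against 155, 159 and 155 CPM in the control libraries. The highest curcumol library lay just below the lowest control library. The log2 fold change was -0.15 ± 0.06 (SE, 95% interval -0.28 to -0.02, edgeR adjusted p = 0.0372), the smallest change among the tested members. The call was lost with DESeq2 (adjusted p = 0.136), with DESeq2-type size factors (edgeR adjusted p = 0.105) and with a stricter filter of means of at least 1 CPM and 50 counts (edgeR adjusted p = 0.0539), and the sign turned with a GC offset (0.11, edgeR adjusted p = 0.0606). It was also lost without control replicate 1, control replicate 2, curcumol replicate 2 or curcumol replicate 3 (edgeR adjusted p = 0.0557, 0.105, 0.139 and 0.186). TIMP2 shares 198 exonic bases with CEP295NL on the same strand, a gene with 49 counts in all, against 15619 for TIMP2.

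TIMP3 (ENSG00000100234, chromosome 22, 32801701 to 32863043), the inhibitor that binds to the matrix and acts on ADAM17, had 2, 10 and 0 counts in curcumol and 0 in each control library. The 10 counts lay in curcumol replicate 2, where A2M had 23 counts and 0 in every other library, and where 6 genes had at least 10 counts and 0 elsewhere (PTN, CXCL14, A2M, LUM, PRRX1 and CRABP1, named after their values were seen). No other library held such a gene. Without a filter on low counts TIMP3 passed (edgeR adjusted p = 0.011 over 30878 genes), and without curcumol replicate 2 it held 2 counts in all. The part of the fibroblast markers in these counts was not tested.

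The summed TPM of TIMP1 and TIMP2 divided by that of MMP14 was 4.13, 3.85 and 3.89 in the curcumol libraries, against 1.01, 0.999 and 1.06 in the control libraries. This ratio does not depend on the scaling of the libraries. TIMP1 was the larger part of the sum, with means of 111 TPM in curcumol and 116 TPM in control. TIMP2 had means of 78.1 TPM in curcumol and 110 TPM in control. The ratio compares mRNA levels, and inhibition of MMP14 by either TIMP was not tested. The ratio of TIMP2 to TIMP1 was 0.705 ± 0.0366 in curcumol and 0.951 ± 0.0611 in control (SD, n = 3), and its libraries did not overlap between the groups.

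Other genes that control MMPs went both ways. Of 9 genes, 7 were tested, and 4 were higher and 2 lower, with a median of 0.44, while 79.7% of all tested genes were called. BSG, basigin, which induces MMPs in neighbouring cells, averaged 813 ± 65.9 CPM in curcumol and 453 ± 24.2 CPM in control (SD, n = 3), and its log2 fold change was 0.84 ± 0.06 (SE; adjusted p = 5.32e-11, edgeR), or 1.49 with a GC offset. RECK, a membrane-anchored inhibitor of MMPs, stood at 0.44 ± 0.11 (edgeR adjusted p = 0.00148), but at 0.17 with library totals, and the GC offset gave 0.18 (edgeR adjusted p = 0.181 and 0.117). TIMP4, the remaining TIMP gene, and FURIN, a convertase that activates pro-MMP14, are named after their values were seen. TIMP4 had 113, 79 and 80 counts in curcumol and 54, 67 and 78 in control, with a log2 fold change of 0.73 ± 0.21 (edgeR adjusted p = 0.00284), and shares 170 exonic bases with SYN2 on the other strand. TIMP4 stood at 0.46 with library totals (edgeR adjusted p = 0.045) and at 1.01 with the GC offset. Its TPM overlapped between the groups (9.52 to 13.2 in curcumol and 7.04 to 9.84 in control). FURIN did not pass, at -0.04 ± 0.08 (95% interval -0.21 to 0.12, edgeR adjusted p = 0.613), but its call depended on the setting. It was lower with library totals (-0.31, edgeR adjusted p = 0.00121) and higher with the GC offset (0.61, edgeR adjusted p = 4.02e-09). PCSK5, a proprotein convertase, was near the limit of detection, with 22, 13 and 22 counts in curcumol and 1, 2 and 6 in control, and its log2 fold change of 2.89 ± 0.57 varied from 2.49 to 3.80 as libraries were left out. SPINT1, an inhibitor of serine proteases at epithelial surfaces, stood at -1.30 ± 0.30 (edgeR adjusted p = 0.000526), or -0.69 with the GC offset (edgeR adjusted p = 0.0446). PCSK6 and SPINT2, not tested, had 8 and 12 counts in curcumol and 25 and 41 in control.

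Among ADAM and ADAMTS proteases, several of which TIMP3 can inhibit, 11 of 14 were tested. Of these 4 were higher and 6 lower, with a median of -0.61, while 79.7% of all tested genes were called. ADAM17, the sheddase of tumour necrosis factor, rose by a log2 fold change of 1.08 ± 0.07, or 0.50 with the GC offset. It averaged 155 ± 8.82 CPM in curcumol and 73.4 ± 6.21 CPM in control (SD, n = 3). It shares 1323 exonic bases with IAH1 on the other strand, a gene that held 3260 counts over all libraries, against 11545 for ADAM17. ADAM19 averaged 8.47 ± 1.27 CPM in curcumol and 60.5 ± 3.08 CPM in control (SD, n = 3), and its log2 fold change was -2.84 ± 0.11 (SE; adjusted p = 5.28e-16, edgeR). It shares 62 exonic bases with CYFIP2 on the other strand, a gene that held 6405 counts over all libraries, against 3873 for ADAM19. The matrix proteases ADAMTS9, ADAMTS5 and ADAMTS15, which cleave proteoglycans, changed by -2.22 ± 0.09, -2.24 ± 0.16 and -2.50 ± 0.17. ADAMTS1, of the same list and named after its values were seen, rose by 0.55 ± 0.05 (SE; adjusted p = 7.33e-09, edgeR). ADAM28, ADAM33 and ADAMTS4, not tested, had 2, 9 and 6 counts in curcumol and 0, 4 and 2 in control.

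The genes whose pattern over the 6 libraries was nearest to that of PLAU, by Euclidean distance of mean-centred log2 CPM among 10431 genes, were ADAM19 (0.0959), ADAMTS7 (0.13) and EML3 (0.136). Nearest to PLAUR were the receptor kinase gene EPHA2 (0.0542), PQBP1 (0.086) and PLIN2 (0.0981). The difference between the groups dominates these patterns, and the log2 fold changes were alike, at -2.84 for ADAM19 and 1.25 for EPHA2.

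**Figure D4:**
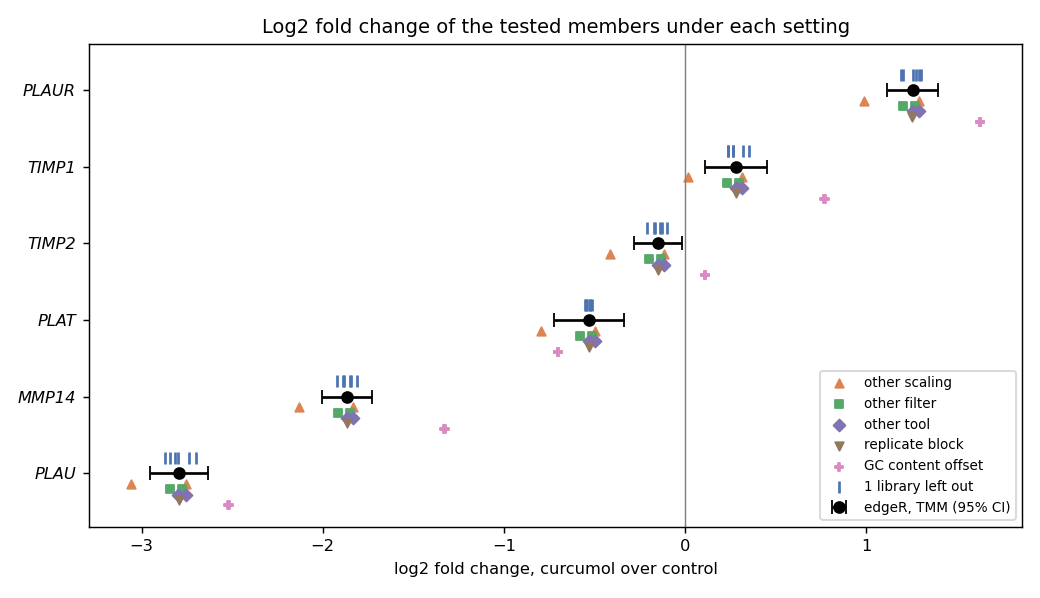
Log2 fold change, curcumol over control, of the 6 tested members in the edgeR fit with TMM scaling (black, 95% interval) and under other scalings, filters, tools, a replicate block, a GC offset and with each library left out. PLAU, MMP14 and PLAT stayed below 0 and PLAUR above 0 under every setting drawn, whereas TIMP1 reached 0.02 and TIMP2 lay on both sides of 0.

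Under the 15 alternative settings PLAU ranged from -3.06 to -2.52, MMP14 from -2.13 to -1.33, PLAT from -0.80 to -0.50 and PLAUR from 0.99 to 1.63, and each passed in all of them. The largest departures came from library totals and from the GC offset. Genes richer in GC tended to have lower fold changes (Spearman rho -0.34 over 15154 tested genes, which are not independent replicates). The longest transcripts of PLAU, PLAUR, MMP14, TIMP1 and TIMP2 have a GC content of 53.7% to 58.9%, while that of PLAT is 45.6%.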

How the data were processed

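Poly(A)-selected RNA of ACHN cells was sequenced in pairs on an Illumina instrument, per the labels' protocols. The deposited file is a table of unnormalized whole-number counts, with a row per Ensembl gene. The submitters' processing notes name GRCh38 (hg38) as the build. The aligner, counting tool, annotation release and use of strand are not stated there. All 58735 identifiers are in GENCODE 29 (Ensembl 94, GRCh38), which gave coordinates, overlaps, joined exon lengths and, from the longest transcript, GC content.

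The labels call the libraries independent biological replicates. No library repeated another, since chi-square per degree of freedom was 3.48 to 7.998 between libraries of the same group. Genes were filtered with filterByExpr by group, scaled with TMM and tested over 15160 genes with the robust quasi-likelihood F test of edgeR 4.0.16 in R 4.3.3, with Benjamini-Hochberg adjustment at 0.05. Standard errors were taken as the size of the log2 fold change over the root of F. With 3 libraries per group, replicate number limits precision for abundant genes, and counting error for genes near 0. The code was tested on simulated counts.

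Members and lists were chosen with earlier results of these data known. Named genes were the members, list genes that passed and changed at least 2-fold, the 3 of each list with the smallest p, SERPINE2, LRP1, ANXA2, S100A10, MMP15 and RECK, untested list genes, and the 3 nearest in pattern with a mean of at least 100 counts to PLAU and to PLAUR, the members with the smallest p in each direction. Alternatives were DESeq2 1.42.0, limma-voom (limma 3.58.1), DESeq2-type size factors, library totals, no filter, a stricter filter (means of 1 CPM and 50 counts or more), a block for replicate number, a GC offset (spline with 5 degrees of freedom per library), both together and each library left out. Some genes of the lists enter the counts of list members but are not reported here by name.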

Additional observations from a re-analysis of the deposited data

How the results depend on the processing

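Of the members, 2 were called higher and 4 lower. The count of higher members was 1 with library totals, where TIMP1 lost its call by scaling alone, and 3 with no low-count filter, where TIMP3 was also tested and passed. The count of lower members was 3 in 9 of the 15 alternatives (DESeq2, its size factors, the stricter filter, the GC offset with and without the block, and 4 of the 6 left-out libraries), in each of which TIMP2 lost its call. The other MMP list had 0 higher genes, but 1 with no low-count filter (MMP13, with 0, 3 and 11 counts in curcumol and 0 in control) and 0 to 1 as libraries were left out (MMP1). The MMP control list had 2 lower genes, but 1 with the stricter filter, which tested 5 genes, and 1 with the replicate block and GC offset together, where SPINT1 was lost (-0.71, adjusted p = 0.0512). With the GC offset TIMP2 turned to 0.11, LRP1 to 0.0695, MMP24 to 0.13 and FURIN to 0.61, and with the offset and block together these were 0.11, 0.0696, 0.13 and 0.60. FURIN, not called, ranged from -0.0979 to 0.0381 as libraries were left out, above 0 without curcumol replicate 3. The causes were not tested. MMP24 lost its call under both GC settings, so the other MMP list had 3 lower genes there. It also had 3 with the stricter filter, which tested 4 of its genes. Same-numbered libraries did not deviate together (correlations 0.02, -0.01 and 0.08, 1 of 3 best with its own number), so the numbers were not taken as pairs. With the replicate block alone PLAU stood at -2.80, PLAUR at 1.26 and MMP14 at -1.86, and 2 members were higher and 4 lower. Depth limits MMP2, MMP7 and TIMP3, for which no fold change is given.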
